A study of Mus musculus with 48 samples.

Results

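Fatty acid desaturases and elongases are the membrane enzymes that put double bonds into fatty acids and lengthen them. The account covers 8 of their genes in mouse liver, out of 18193 genes with a probe set of their own, and uses all 20 probe sets that carry a member's symbol alone, out of 45037 tested. The members are Scd1, Scd2, Fads1, Fads2, Elovl1, Elovl2, Elovl5 and Elovl6. They were chosen by pathway and by the rise of Scd1 between the 2-d and the 4-wk livers, so all 4-wk against 2-d values of these genes are given as a description and without a test. Diet was not a criterion, and the diet comparisons were tested. Members and tests were still chosen with earlier results of these data known.

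All mice were male C57BL/6J, bought at 6 to 7 weeks of age, housed singly and made obese on the L-P/C-HF diet for 10 weeks, and those with the poorest glucose tolerance in a larger set were kept and randomized. H-P/C-HF mice were then switched to a diet with more energy from protein and less from carbohydrate at an equal share of fat, while L-P/C-HF mice stayed on the first diet, and livers were taken after 4 wk or after 2 d. The groups, with 1 Affymetrix array per mouse, were H-P/C-HF 4-wk (12 mice), L-P/C-HF 4-wk (12), H-P/C-HF 2-d (11) and L-P/C-HF 2-d (12). One array of the H-P/C-HF 2-d group, labelled B25, was left out because the methods of the study name it as an outlier. No group ate a low-fat diet, so every level here is that of an obese, fat-fed mouse. The 4-wk mice were also older than the 2-d mice, and the glucose tolerance test closest to death lay further back for them, so duration, age and time since that test cannot be told apart.

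Stearoyl-CoA desaturases, encoded in mouse by the Scd genes, put the first double bond into saturated fatty acids and yield oleate and palmitoleate. Elovl6 makes the stearate that they use, and Elovl1 lengthens very long saturated chains. Polyunsaturated fatty acids cannot be made from scratch. Their dietary precursors are desaturated by Fads2 and Fads1 in alternation with elongation by Elovl5 and Elovl2, which in liver leads to arachidonate and docosahexaenoate. Several of these genes are known targets of the lipogenic factor SREBP-1 in liver, and Scd1 is known to respond to dietary carbohydrate and fat.

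Promoter windows in RefSeq (build GRCm38.p6) were matched by symbol for 5 of the 8 members, and those of Scd1, Scd2 and Fads1 were not printed. The 250 bases before the start of Fads2 and Elovl5 are shown because these are the matched members with the highest 4-wk levels relative to 2-d. Capitals mark the CCAAT box (letters CCAAT) and the E box (letters CACGTG), each searched on both strands, and a sterol element (letters TCACNCCAC) was searched in the same way.
Fads2, chr19:10101504-10101753, minus strand: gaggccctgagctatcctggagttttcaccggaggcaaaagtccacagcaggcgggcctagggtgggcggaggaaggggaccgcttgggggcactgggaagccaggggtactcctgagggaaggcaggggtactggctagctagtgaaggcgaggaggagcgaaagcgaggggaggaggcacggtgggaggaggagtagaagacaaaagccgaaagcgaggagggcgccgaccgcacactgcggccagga
Elovl5, chr9:77917115-77917364, plus strand: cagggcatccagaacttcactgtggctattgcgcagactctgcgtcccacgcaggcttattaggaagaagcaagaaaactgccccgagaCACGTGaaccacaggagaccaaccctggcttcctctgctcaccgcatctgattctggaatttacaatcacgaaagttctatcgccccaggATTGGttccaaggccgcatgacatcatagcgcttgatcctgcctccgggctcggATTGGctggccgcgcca
The Elovl5 window held 2 CCAAT boxes, both in the reverse orientation (ATTGG), and 1 E box, with no overlap between them, while the Fads2 window held none of the 3 motifs. Of 32851 promoter windows of this length, 33.8% held a CCAAT box, 6.02% an E box and 1.05% the sterol element. The windows of Elovl6 and Elovl2 held none of the 3 motifs, and 1 of the 2 windows of Elovl1 held 1 CCAAT box. These matches describe letters only.

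The levels are log2 units from robust multi-array averaging (RMA), in which a difference of 1 is a doubling. A level is comparable between mice for a given probe set and not between probe sets, since probes differ in brightness. Array medians lay between 6.73 and 6.91. The liver label was met by the hepatocyte markers, of which the dimmest (Tat) averaged 12.69 and the brightest (Alb) 14.59. Of 3 measured adipocyte markers the dimmest (Adipoq) averaged 4.82 and the brightest (Retn) 8.02. In whole liver, fewer cells of a type and less RNA per cell cannot be told apart. After B25 (mean correlation over all 48 arrays, itself included, 0.976), the arrays A09 (0.977), A01 and A24 (0.980 each) stood furthest from the rest. Results that rest on them are also given without them. B25 itself read 8.85 and 12.94 for the Scd1 probe sets, close to the lowest of its group.

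Scd1, the main hepatic stearoyl-CoA desaturase, had higher means in 4-wk than in 2-d livers on both diets. The size of that difference depended on the probe set, and no diet difference of Scd1 passed the test. Of its 2 probe sets, 1415965_at showed the wider range. Its lowest, median and highest levels were 10.83, 12.56 and 13.28 in H-P/C-HF 4-wk mice, and 10.82, 12.72 and 13.10 in L-P/C-HF 4-wk mice. At 2-d they were 8.54, 9.73 and 11.22 in H-P/C-HF mice, and 9.28, 10.62 and 12.37 in L-P/C-HF mice. On the H-P/C-HF diet 11 of 12 mice at 4-wk lay above all 2-d mice, and on the L-P/C-HF diet 9 of 12 did. Mice 01, 03 and 12 of the L-P/C-HF 4-wk group (10.88, 10.82 and 12.31) had levels within the 2-d range, as did mouse 04 of the H-P/C-HF 4-wk group (10.83). Of the 2-d mice, numbers 07 and 10 on H-P/C-HF (11.12 and 11.22) and numbers 04, 07, 11 and 12 on L-P/C-HF (11.11, 10.97, 10.90 and 12.37) had levels within the 4-wk range of their diet.

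The mean difference (4-wk minus 2-d) of this probe set was 2.40 log2 units on H-P/C-HF (5.27-fold, means 12.36 ± 0.73 at 4-wk and 9.97 ± 0.85 at 2-d, SD) and 1.95 log2 units on L-P/C-HF (3.87-fold, means 12.42 ± 0.76 at 4-wk and 10.47 ± 0.90 at 2-d, SD). Among all 45037 probe sets it ranked 1 for the size of the rise on both diets, which the choice of the gene makes a description. The other probe set, 1415964_at, averaged 13.80 over all arrays and lay near the top of the scale, where the highest value in the file is 14.81. It gave the same direction with smaller differences of 0.61 on H-P/C-HF (means 14.06 ± 0.21 at 4-wk and 13.45 ± 0.31 at 2-d, SD) and 0.36 on L-P/C-HF (means 14.01 ± 0.29 at 4-wk and 13.65 ± 0.32 at 2-d, SD). By this probe set 10 of 12 H-P/C-HF mice at 4-wk lay above all 2-d mice of their diet, and 0 of 12 L-P/C-HF mice did. Across the 47 mice the deviations of the 2 probe sets from their group means correlated with r = 0.71.

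**Figure D1:**
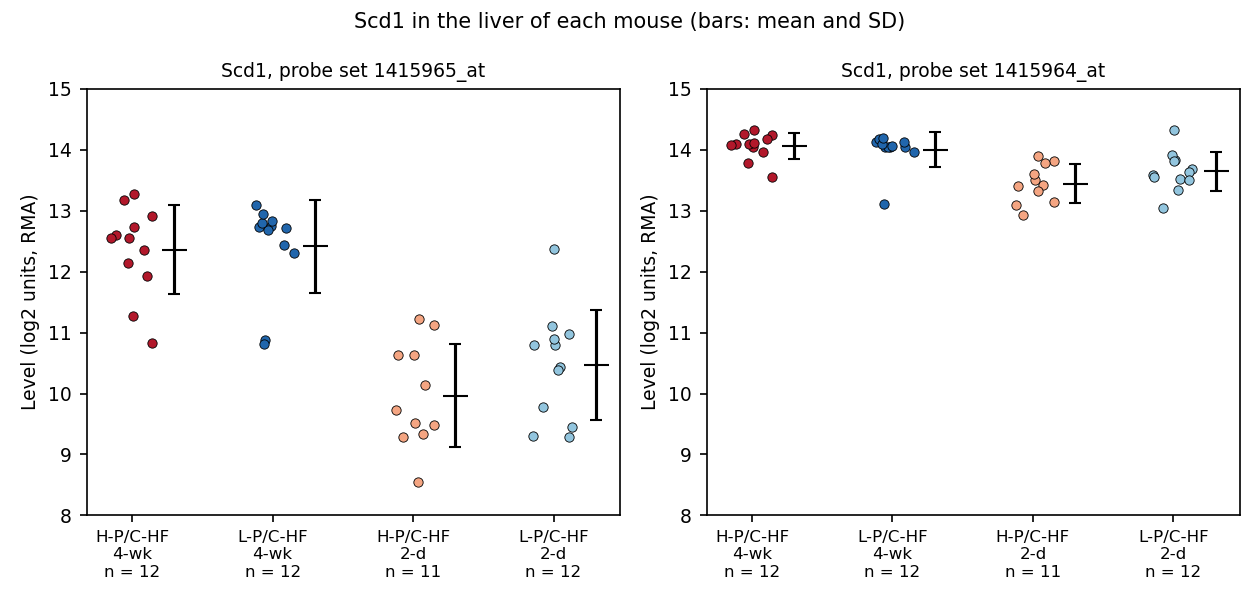
Level of Scd1 (log2 units, RMA) in each mouse for 2 probe sets, with the 4 groups along the horizontal axis; each point is 1 mouse and the bars give the mean and SD. In the left panel the 4-wk groups average 12.36 and 12.42 and the 2-d groups 9.97 and 10.47, and the right panel shows a narrower range near the top of the scale.

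Other measures moved with duration as well, and their part in the Scd1 difference was not tested apart from the covariate given here. The 3' minus 5' signal of the Gapdh and beta-actin control probe sets, which grows as RNA degrades, averaged 0.27 ± 0.11 in H-P/C-HF 4-wk mice and 0.24 ± 0.07 in L-P/C-HF 4-wk mice, against 0.48 ± 0.13 in H-P/C-HF 2-d mice and 0.48 ± 0.19 in L-P/C-HF 2-d mice (SD). With this measure as a covariate the difference of 1415965_at was 1.66 on H-P/C-HF and 1.11 on L-P/C-HF, while that of 1415964_at stayed at 0.61 and 0.36. In the 4-wk groups the highest values of this measure were 0.39 (L-P/C-HF mouse 01) and 0.51 (H-P/C-HF mouse 01). Those mice read 10.88 and 11.28 for 1415965_at, and 14.05 and 14.04 for 1415964_at. Similarly low 1415965_at levels, 10.82 and 10.83, came with 0.23 (L-P/C-HF mouse 03) and 0.37 (H-P/C-HF mouse 04, above its group mean of 0.27). In the 2-d groups the highest values were 0.90 (L-P/C-HF mouse 01) and 0.745 (H-P/C-HF mouse 12). Those mice read 9.45 and 8.54 for 1415965_at, the latter the lowest level of all mice, and 13.68 and 13.32 for 1415964_at. Low 1415965_at levels at 2-d, 9.28 on each diet, also came with 0.50 (L-P/C-HF mouse 10) and 0.48 (H-P/C-HF mouse 05).

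Markers of other liver cells differed with duration in the same direction. All 7 Kupffer cell markers averaged higher at 4-wk on both diets, with median summary levels of 9.26 (H-P/C-HF 4-wk, range 8.41 to 9.79) and 9.74 (L-P/C-HF 4-wk, 8.97 to 10.51), against 8.58 (H-P/C-HF 2-d, 8.26 to 9.10) and 8.72 (L-P/C-HF 2-d, 8.26 to 9.39). All 5 sinusoidal endothelium markers were higher at 4-wk on both diets too, with summary levels of 8.07 to 9.20 (H-P/C-HF 4-wk) and 8.20 to 9.25 (L-P/C-HF 4-wk), against 7.99 to 8.51 (H-P/C-HF 2-d) and 7.99 to 8.66 (L-P/C-HF 2-d). Stellate cell markers were higher at 4-wk for 5 of 7 on H-P/C-HF and for 7 of 7 on L-P/C-HF. Hepatocyte markers were divided, with 3 of 7 higher at 4-wk on H-P/C-HF and 4 of 7 on L-P/C-HF. So were those of cholangiocytes (1 and 2 of 4) and lymphocytes (2 and 3 of 4), while 1 of 3 adipocyte and 1 of 3 pancreatic acinar cell markers were higher at 4-wk on each diet.

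Fads2, the delta-6 desaturase that opens the polyunsaturated pathway, had the next largest difference between durations among the members. Its brightest probe set, 1449325_at, had lowest, median and highest levels of 11.98, 12.49 and 12.87 in H-P/C-HF 4-wk mice and 11.37, 12.39 and 12.75 in L-P/C-HF 4-wk mice. At 2-d the levels were 11.21, 11.87 and 12.17 in H-P/C-HF mice and 10.28, 11.79 and 12.49 in L-P/C-HF mice. On H-P/C-HF 10 of 12 mice at 4-wk lay above every 2-d mouse, against 5 of 12 on L-P/C-HF. The mean difference (4-wk minus 2-d) was 0.70 on H-P/C-HF and 0.71 on L-P/C-HF, and 0.49 and 0.47 with the RNA quality covariate. The other Fads2 probe sets gave smaller differences, which for 1419031_at were 0.34 on H-P/C-HF and 0.28 on L-P/C-HF, and for 1443838_x_at 0.23 and 0.04.

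Elovl5, the elongase that acts between the 2 desaturation steps, was also higher at 4-wk. Its probe set 1415840_at had lowest, median and highest levels of 12.78, 13.04 and 13.54 in H-P/C-HF 4-wk mice and 12.45, 13.06 and 13.69 in L-P/C-HF 4-wk mice. At 2-d these were 12.13, 12.70 and 12.96 in H-P/C-HF mice and 11.80, 12.69 and 13.22 in L-P/C-HF mice. The groups overlapped by 2 mice at 4-wk on H-P/C-HF, where the other 10 of 12 lay above all 2-d mice, and overlapped widely on L-P/C-HF, where 3 of 12 did. Mean differences (4-wk minus 2-d) were 0.50 on H-P/C-HF and 0.38 on L-P/C-HF, and the second probe set, 1437211_x_at, gave 0.50 and 0.43.

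The remaining members moved less with duration. Fads1 (1423680_at) differed by 0.42 on H-P/C-HF, where 12 of 12 mice at 4-wk lay above the 2-d median and 6 above the highest 2-d mouse, and by 0.10 on L-P/C-HF. Elovl6 (1417404_at) differed by 0.28 on H-P/C-HF and 0.13 on L-P/C-HF, Elovl2 (1416444_at) by 0.22 and 0.09, Scd2 (1415822_at) by 0.20 and 0.28, and Elovl1 (1425676_a_at) by 0.16 and 0.07. Over all 20 probe sets, 19 had a higher mean at 4-wk on H-P/C-HF and 16 on L-P/C-HF, with median differences of 0.23 and 0.11 beside -0.02 and -0.0025 over all probe sets tested. Of all genes, by the brightest probe set, 43.2% on H-P/C-HF and 52.8% on L-P/C-HF had a higher mean at 4-wk. Genes with several probe sets count more than once among the 20. The lowest of the 20 was Elovl6 1442656_at, with -0.31 on H-P/C-HF and -0.32 on L-P/C-HF, and its deviations correlated with those of 1417404_at at only r = 0.11. A difference above 0.5 on both diets was found for 2 of the 20 probe sets, 1415965_at of Scd1 and 1449325_at of Fads2, and for 1.36% of all probe sets.

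**Figure D2:**
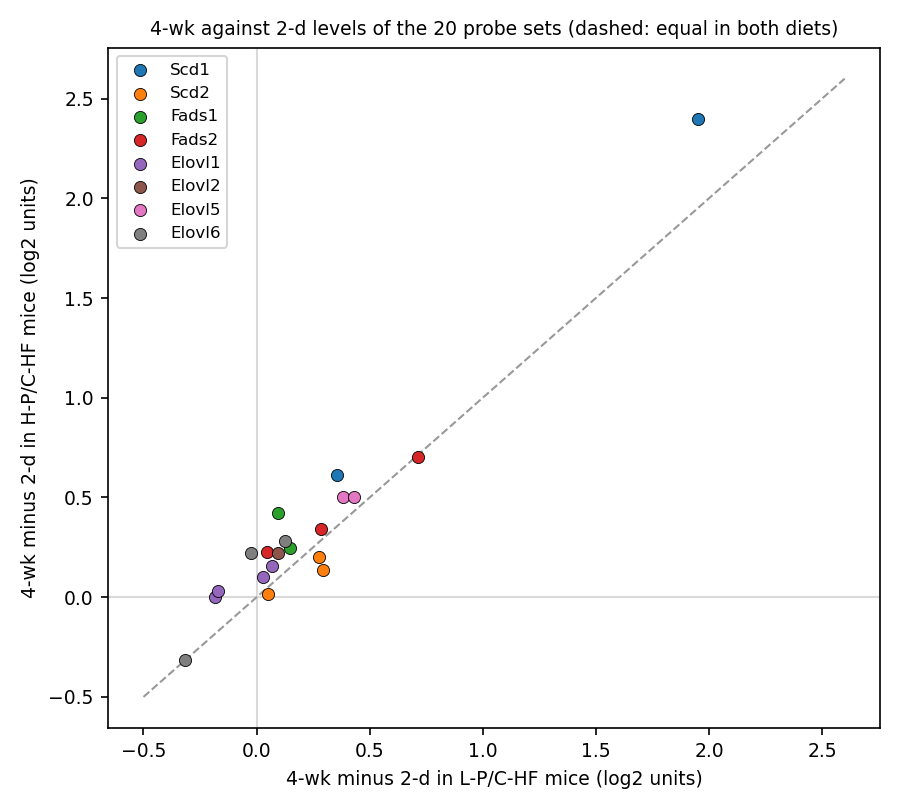
Mean 4-wk minus 2-d difference (log2 units) of the 20 probe sets in H-P/C-HF mice (vertical axis) against L-P/C-HF mice (horizontal axis), coloured by gene, with a dashed line where both diets are equal. Scd1 1415965_at stands at 2.40 and 1.95, Fads2 1449325_at at 0.70 and 0.71, and the other 18 probe sets between -0.32 and 0.61.

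The diet comparison asked whether exchanging carbohydrate for protein altered these genes. No member passed an adjusted p of 0.05 (limma, Benjamini-Hochberg over 45037 probe sets) at either duration. At 4-wk 0 of 20 probe sets passed, beside 0% of all probe sets, and the smallest adjusted p of any probe set was 0.228. At an unadjusted p under 0.05, 2 of 20 were higher on H-P/C-HF (Fads1 and Elovl2) and 0 lower, beside 2.76% of all probe sets. At 2-d 0 of 20 passed with adjustment, beside 0.0133% of all, and 0 of 20 without it, beside 3.52%. Without A01, A09 and A24 the unadjusted counts were 1 of 20 at 4-wk and 4 of 20 at 2-d, and still 0 of 20 passed with adjustment. The share of all probe sets at an unadjusted p under 0.05 was not computed without those arrays, so these counts have no background beside them. Averaged over both durations 0 of 20 passed with adjustment, beside 0.0511%, and 2 of 20 (again Fads1 and Elovl2) without it, beside 4.56%. The counts over members are small, and the 2 probe sets of 20 are from 2 genes that also varied together. The study itself used another test, ANOVA with Global Error Assessment, and a threshold on its p-value. Its 4-wk pathway and regulator results, drawn from genes that passed, name Elovl2 and Fads1.

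Fads1, the delta-5 desaturase that makes arachidonate and eicosapentaenoate, had the smallest unadjusted p for diet among the members. Levels of 1423680_at at 4-wk ran from 12.04 over a median of 12.46 to 12.71 in H-P/C-HF mice, and from 11.48 over 12.06 to 12.46 in L-P/C-HF mice. On H-P/C-HF 11 of 12 mice exceeded the median of the other diet and 6 exceeded its highest mouse. At 2-d the groups covered the same range, 11.60 to 12.47 in H-P/C-HF mice and 11.47 to 12.43 in L-P/C-HF mice.

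The diet difference of this Fads1 probe set at 4-wk was 0.32 ± 0.10 log2 units (SE, n = 12 each; 1.25-fold, 95% CI 1.09 to 1.44), with an unadjusted p of 0.00179 and an adjusted p of 0.999 in limma. At 2-d the difference was -0.0020 with a 95% CI of -0.20 to 0.20. The difference between the 2 diet effects (4-wk minus 2-d) was 0.33 (95% CI 0.04 to 0.61, unadjusted p = 0.0244, adjusted p = 0.9999 in limma). This was the only one of 20 member probe sets with an unadjusted p under 0.05 in that comparison, beside 1.63% of all probe sets, and 0 of 20 passed with adjustment, beside 0%. The dimmer Fads1 probe set, 1440444_at, had a diet difference of -0.02 at 4-wk (95% CI -0.21 to 0.18), and its levels of 7.73 to 8.62 in H-P/C-HF mice enclosed those of 7.99 to 8.41 in L-P/C-HF mice.

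Elovl2, which elongates polyunsaturated chains toward docosahexaenoate, had lowest, median and highest levels at 4-wk of 12.10, 12.32 and 12.70 in H-P/C-HF mice and 11.39, 12.16 and 12.52 in L-P/C-HF mice. The lowest L-P/C-HF mouse, number 12 (array A24), had the lowest Fads1 level of that group as well. The difference was 0.23 ± 0.10 (SE, n = 12 each, 95% CI 0.03 to 0.43, unadjusted p = 0.0237, adjusted p = 0.999 in limma). With A24 left out, together with the 2-d arrays A01 and A09 it was 0.16 (unadjusted p = 0.0567 in limma), while that of Fads1 was 0.27 (unadjusted p = 0.00386 in limma).

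**Figure D3:**
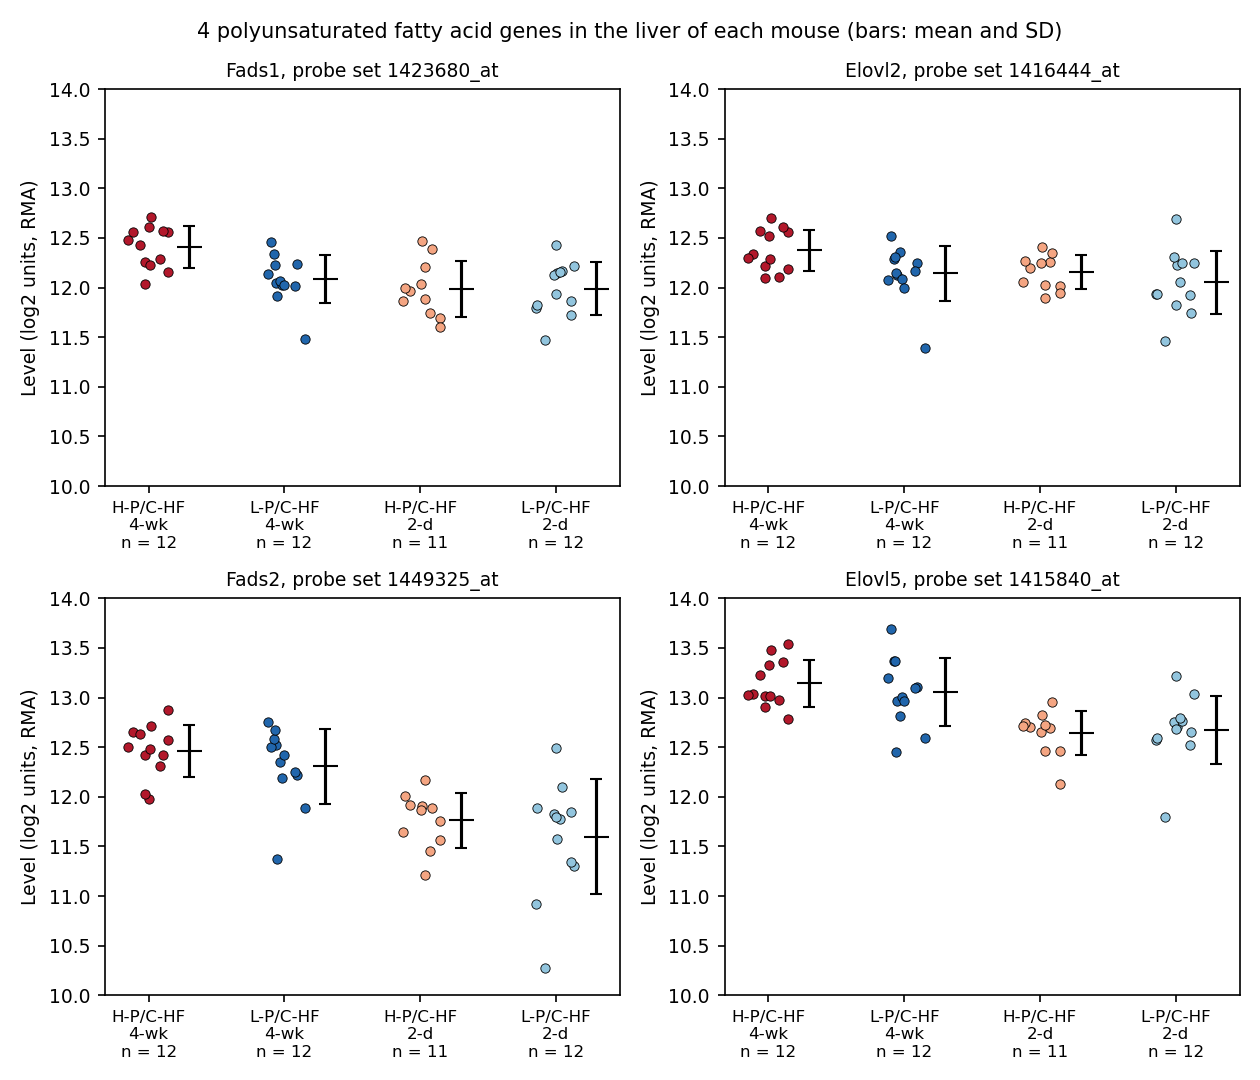
Level (log2 units, RMA) of Fads1, Elovl2, Fads2 and Elovl5 in each mouse, with the 4 groups along the horizontal axis; points are mice and bars give the mean and SD. For Fads1, 6 of 12 H-P/C-HF 4-wk mice lie above every L-P/C-HF 4-wk mouse, and for Fads2 and Elovl5 both 4-wk groups have higher means than the 2-d groups.

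Scd1 and Elovl6 had lower means on H-P/C-HF at 2-d, none past the test. For Scd1 1415965_at the diet difference at 2-d (negative where H-P/C-HF was lower) was -0.50 (95% CI -1.13 to 0.13, unadjusted p = 0.12, adjusted p = 0.9998 in limma), and at 4-wk it was -0.05 (95% CI -0.67 to 0.57). For 1415964_at the values were -0.20 at 2-d (95% CI -0.43 to 0.03, unadjusted p = 0.0839 in limma) and 0.06 at 4-wk (95% CI -0.17 to 0.28). These intervals leave room for a difference of either sign at 4-wk.

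Elovl6 pointed the same way at 2-d, with -0.20 for 1417404_at (95% CI -0.48 to 0.09) and -0.27 for 1417403_at (95% CI -0.56 to 0.03). The third Elovl6 probe set, 1442656_at, gave -0.07 (95% CI -0.46 to 0.32). Its 1417404_at levels at 2-d were 9.89 to 10.80 in H-P/C-HF mice (median 10.33) and 9.30 to 11.22 in L-P/C-HF mice (median 10.66), so that the narrower group lay inside the wider one. The lowest L-P/C-HF mouse was number 09 (array A09), which had the lowest level of its group for the brightest probe set of 6 of the 8 members. With A01, A09 and A24 left out, the 2-d diet difference was -0.31 for Elovl6 1417404_at and -0.67 for Scd1 1415965_at, and the unadjusted p in limma was 0.0107 and 0.0476, with adjusted values of 0.9999 for both.

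Diet differences of the other members were small against their spread. Fads2 1449325_at differed by 0.15 at 4-wk (95% CI -0.15 to 0.46) and by 0.17 at 2-d (95% CI -0.15 to 0.48). With A01, A09 and A24 left out these were 0.12 and 0.0056, so that the 2-d difference rested on those arrays. Elovl5 1415840_at differed by 0.09 (95% CI -0.14 to 0.32) and -0.03 (95% CI -0.27 to 0.20), and Elovl1 1425676_a_at by 0.05 (95% CI -0.12 to 0.23) and -0.04 (95% CI -0.21 to 0.14). Scd2, the desaturase isoform that prevails in brain, was dim here, with levels of 1415822_at between 5.73 and 6.86 over all mice, and differed by -0.16 (95% CI -0.34 to 0.02) and -0.08 (95% CI -0.27 to 0.11). Its other probe sets, 1415823_at and 1415824_at, differed at 2-d by 0.09 (95% CI -0.06 to 0.24) and 0.08 (95% CI -0.08 to 0.23). Over the 20 probe sets the median diet difference was 0.07 at 4-wk, with 13 positive, and -0.03 at 2-d, with 8 positive. Over all probe sets the medians were -0.01 and 0.01, with 42.9% positive at 4-wk and 53.4% at 2-d.

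**Figure D4:**
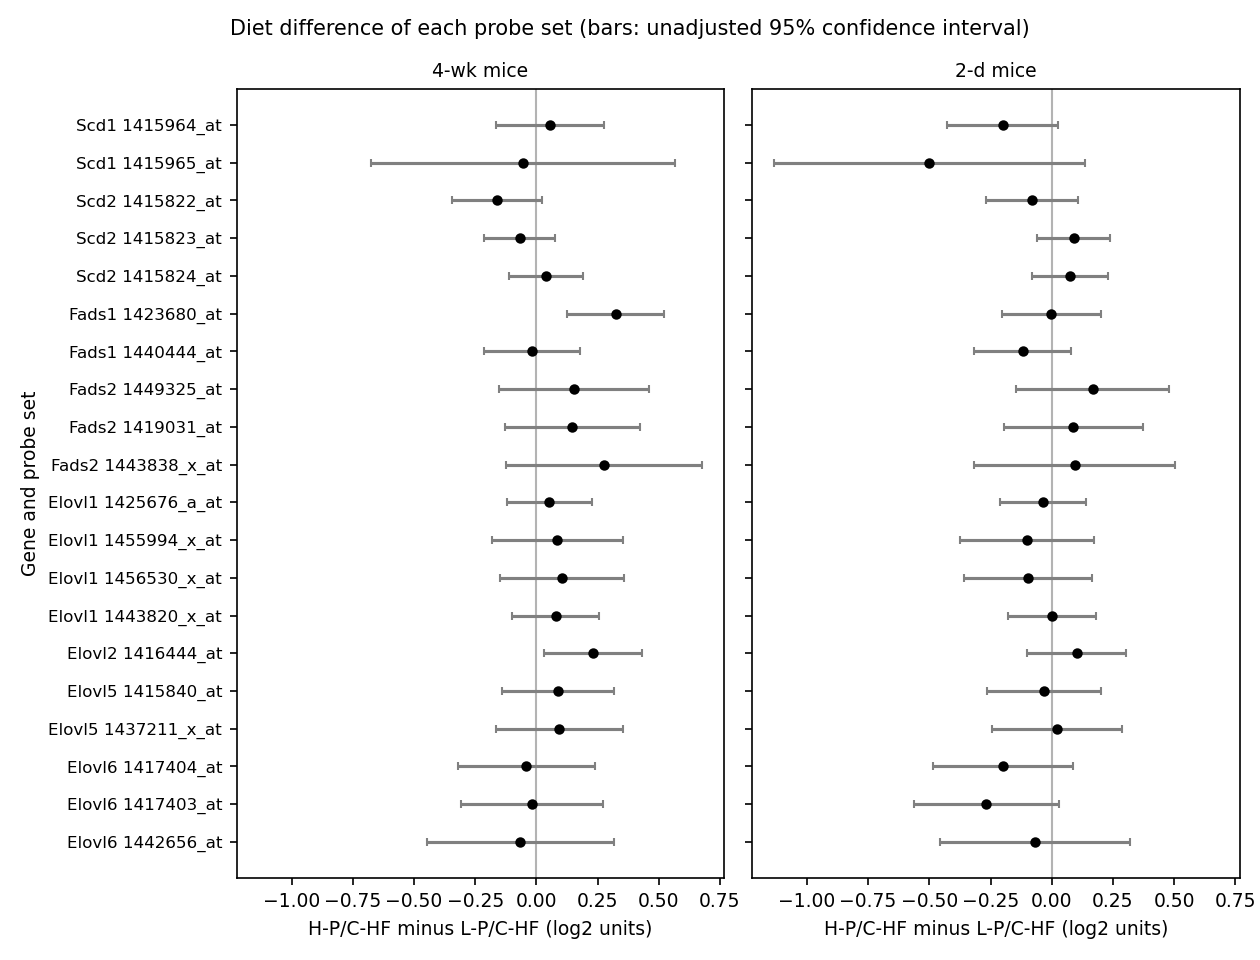
Diet difference (log2 units, positive where H-P/C-HF was higher) of each of the 20 probe sets at 4-wk (left) and 2-d (right); points are the limma estimates and bars their unadjusted 95% confidence intervals. At 4-wk the bars of Fads1 1423680_at (0.32) and Elovl2 1416444_at (0.23) lie above 0, and at 2-d every bar crosses 0.

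Within the groups, Fads1, Elovl2 and Elovl5 varied together most closely among the members. As a description over 47 mice, the deviations of Fads1 from its group means correlated with those of Elovl2 (r = 0.84) and Elovl5 (r = 0.80), and those of Elovl2 with Elovl5 (r = 0.77). All points share the array and its normalization. Among 18192 other genes, the gene most like Elovl2 was Fads1, and that most like Elovl5 was also Fads1, while the 3 genes most like Fads1 were Elovl2, Acsl5 (r = 0.82), a long-chain acyl-CoA synthetase, and Qdpr (r = 0.80), a pteridine reductase. With A01, A09 and A24 left out the r of Fads1 was 0.78 with Elovl2 and 0.74 with Elovl5.

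Among the members, Fads2 correlated with Scd1 1415965_at (r = 0.65), Elovl6 (r = 0.64) and Fads1 (r = 0.58), its partner in the polyunsaturated pathway. With A01, A09 and A24 left out these were 0.69, 0.47 and 0.51, so that the order of Elovl6 and Fads1 turned round. With the brighter Scd1 probe set, 1415964_at, the r of Fads2 was lower, 0.41, and 0.29 without those arrays. The 3 genes most like Fads2 were Aacs (r = 0.75), an acetoacetyl-CoA synthetase, Decr2 (r = 0.75), a peroxisomal dienoyl-CoA reductase, and Thrsp (r = 0.72), a lipogenic protein. Those most like Elovl6 were Fasn (r = 0.78), the fatty acid synthase, Pygl (r = 0.75), the liver glycogen phosphorylase, and Rrm2 (r = 0.73), a subunit of ribonucleotide reductase. Elovl1 and Scd2 had r between -0.34 and 0.14 to every other member. With A01, A09 and A24 left out the range was -0.26 to 0.34, and its highest value was that of Elovl1 with Fads2. The genes most like Elovl1 were Nek6, Srpr and Tmem147 (r = 0.81, 0.79 and 0.79), and those most like Scd2 were Tmsb10, Ckb and Msn (r = 0.63, 0.62 and 0.62).

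For Scd1, the brightest probe set was most like Rflna (r = 0.60), Elovl5 (0.58), Hamp2 (0.53), Cyb5r3 (0.52), Alb, Pdk1, Rgn and Inmt (0.50 to 0.51), and least like Lrg1 (-0.58), Tmem39a (-0.55) and Nudt5 (-0.54). Cyb5r3 is the cytochrome b5 reductase that passes electrons to the desaturases. The dimmer probe set, taken up after its values were seen, was most like Tdo2 (r = 0.66), Fads2 (0.65), Abca6 (0.65), Lactb2 (0.63), Sdhd, Gbe1, Slc25a13 and Itgb1 (0.62 each). Its least like genes were Os9 (-0.64), Nudt5 (-0.61) and Chd8 (-0.60). The 2 lists of 8 had no gene in common.

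**Figure D5:**
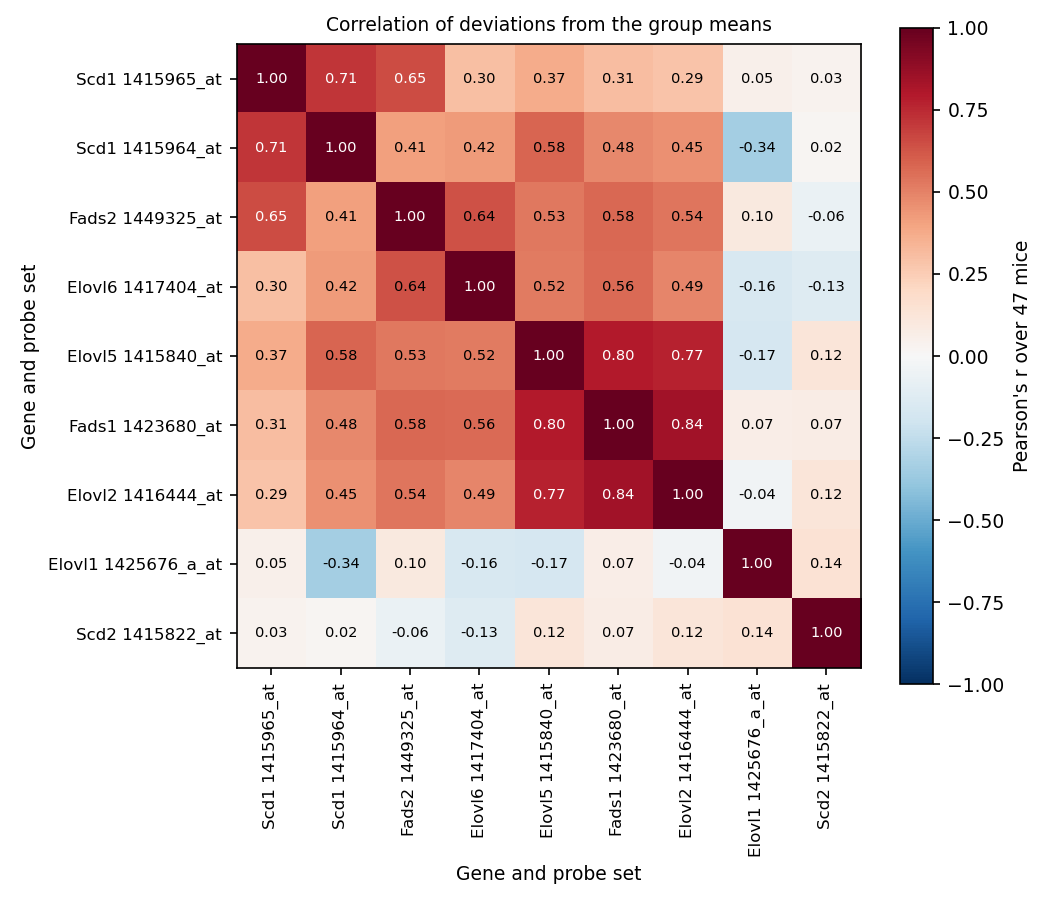
Pearson's r between the deviations of 9 member probe sets from their group means over 47 mice, with gene and probe set on both axes and colour from -1 (blue) to 1 (red). Fads1, Elovl2 and Elovl5 form a block of 0.77 to 0.84, and Elovl1 and Scd2 lie between -0.34 and 0.14 with the rest (-0.26 to 0.34 without A01, A09 and A24).

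Other genes of the pathway, 1 probe set each, gave no adjusted call in any of the 4 diet tests, beside 0 (4-wk), 3 (2-d), 14 (averaged) and 0 (difference of diet effects) of 18193 genes. An unadjusted p under 0.05 in limma was found for 151 higher and 393 lower genes at 4-wk, 372 higher and 294 lower at 2-d, 361 higher and 547 lower in the average, and 74 positive and 197 negative in the difference of diet effects. The list for the making and activation of fatty acids held the most unadjusted calls. At 2-d 10 of its 11 measured genes had a lower mean on H-P/C-HF (median -0.13, beside 0.01 over all genes, of which 53.2% had a higher mean) and 5 of 11 had an unadjusted p under 0.05. At 4-wk 7 of 11 had a higher mean (median 0.03, beside -0.02 over all genes, of which 40.1% had a higher mean). At that duration 0 of 11 had an unadjusted p under 0.05. Malic enzyme (Me1), a source of NADPH, averaged 10.39 ± 0.38 in H-P/C-HF 2-d mice and 10.90 ± 0.50 in L-P/C-HF 2-d mice (SD), a difference of -0.51 (unadjusted p = 0.00301, adjusted p = 0.9998 in limma). Fasn averaged 10.65 ± 0.38 in H-P/C-HF 2-d mice and 11.19 ± 0.45 in L-P/C-HF 2-d mice (SD), a difference of -0.54 (unadjusted p = 0.00356, adjusted p = 0.9998 in limma). Acsl3, an acyl-CoA synthetase, differed by -0.36 (unadjusted p = 0.0162 in limma). In the difference of diet effects 3 of 11 had an unadjusted p under 0.05, all positive, and averaged over both durations 2 of 11, both negative.

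Among the 8 measured relatives of the members, Fads6 differed by 0.18 at 4-wk (unadjusted p = 0.044, adjusted p = 0.999 in limma), and the others had no unadjusted p under 0.05 in the 4 diet tests. Of 9 partners of the elongation cycle, which include the dehydratases, reductases and cytochrome b5 proteins, 1 had such a p, Hsd17b12, the ketoacyl-CoA reductase, with an averaged difference of -0.10 (unadjusted p = 0.045 in limma). Of 9 measured genes that use the products in lipid synthesis, Agpat2, an acyltransferase of phosphatidate synthesis, differed by -0.16 averaged over both durations (unadjusted p = 0.00925, adjusted p = 0.879 in limma). None of the 4 measured genes of peroxisomal shortening had an unadjusted p under 0.05.

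Among 15 measured regulators, Srebf2, whose product mainly activates cholesterol synthesis genes, had lower means on H-P/C-HF. Its differences were -0.18 at 2-d and -0.15 averaged over both durations (unadjusted p = 0.00355 and 0.00109, adjusted p = 0.9998 and 0.412 in limma). Nfyb, a subunit of the CCAAT-binding factor, differed by -0.24 at 2-d (unadjusted p = 0.0306 in limma), and Insig1, the sterol-responsive anchor of the SREBP complex, had a difference of diet effects of 0.40 (unadjusted p = 0.0466 in limma). Srebf1, which encodes SREBP-1, averaged 11.69 ± 0.27 in H-P/C-HF 4-wk mice, 11.81 ± 0.31 in L-P/C-HF 4-wk mice, 11.61 ± 0.15 in H-P/C-HF 2-d mice and 11.53 ± 0.36 in L-P/C-HF 2-d mice (SD). Its diet differences of -0.12 at 4-wk and 0.08 at 2-d were within the spread.

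Markers of other cell types were set beside the diet comparison too. All 7 Kupffer cell markers had lower means on H-P/C-HF at both durations, and all 5 sinusoidal endothelium markers at 4-wk, where 3 of 5 were higher at 2-d. Of 7 stellate cell markers, 2 were higher on H-P/C-HF at 4-wk and 4 at 2-d, and of 7 hepatocyte markers, 5 and 6 were. Higher means on H-P/C-HF were found for 1 of 3 adipocyte markers at each duration, for 0 of 4 cholangiocyte markers at 4-wk and 1 at 2-d, for 1 of 4 lymphocyte markers at 4-wk and 0 at 2-d, and for 1 of 3 pancreatic acinar cell markers at each duration. The part of these cells in the member values was not tested.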

How the data were processed

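Liver RNA of 48 mice was hybridised to 1 Affymetrix array each. The authors deposited log2 values made by robust multi-array averaging, which corrects background, normalizes arrays to each other and condenses probes to 1 value for a probe set. That the base is 2 follows from the range of values, since no source states it. Of 45101 probe sets 64 controls were left out. A probe set was given to a gene only where the platform annotation lists 1 symbol (34945 probe sets), and those with several (932) or none (9160) name no gene here. Samples whose label gives high protein were put in H-P/C-HF.

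One coefficient per group was fitted in limma 3.58.1 (R 4.3.3, eBayes with a trend), two-sided, with Benjamini-Hochberg adjustment over 45037 probe sets. The script was tested on simulated data. Named are all 8 members, up to 3 genes of each pathway list with the smallest unadjusted p, the 8 genes most like and 3 least like Scd1 and the 3 most like each other member. The brightest probe set stands for a gene. Srebf1 was added after its values were seen. Members, lists and tests were chosen with earlier results of these data known.

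The alternatives were B25 included, A01, A09 and A24 left out, array weights, median centring, cyclic loess, the brighter probe sets, separate fits, no trend, an RNA quality covariate, the replicate number as a block, ordinary ANOVA, a pooled error, the mean of a gene's probe sets, and Spearman correlation for likeness. The dimmer Scd1 probe set was added after the data were seen. The number of arrays limits the precision.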

Additional observations from a re-analysis of the deposited data

How the results depend on the processing

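Of 424 member values recomputed for the diet tests, 403 kept their direction and their side of the threshold, 5 passed it and 16 changed sign. All 5 that passed came from the pooled error, which replaces each probe set's own variance by that of probe sets of like level. They were Scd1 1415965_at at 2-d, averaged and in the difference of diet effects (adjusted p = 1.85e-08, 3.66e-05 and 0.0108), Fads1 at 4-wk (0.000964) and Elovl2 averaged (0.0463). With it 1 member probe set was called at 4-wk, 1 at 2-d, 2 averaged and 1 in the difference. At an unadjusted p under 0.05 there were 6, 5, 9 and 4 of 20, and the share of all probe sets at that threshold was not computed. This setting leaves out the spread of the probe set itself and uses a normal distribution. For Scd1 1415965_at that spread was 0.81 (SD within groups), and its source was not tested.

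Unadjusted member counts also moved elsewhere, out of 20 probe sets, or out of 8 genes for the mean of a gene's probe sets. The share of all probe sets at the unadjusted threshold was not computed for these settings, so the counts have no background beside them. At 4-wk there was 1 without A01, A09 and A24, and 1 with the mean of a gene's probe sets. At 2-d there were 2 with B25, 4 without A01, A09 and A24, and 4 with array weights. Averaged there were 5 with array weights and 1 with the mean of probe sets, and in the difference 2 and 0.

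Over all probe sets, calls at 4-wk were 0, against 10 with array weights, 1 with cyclic loess, 2 with the replicate block and 265 with the pooled error. At 2-d they were 6, against 23 with cyclic loess, 12 for the brighter probe sets, 1 with the replicate block, 0 with ordinary one-way ANOVA (Benjamini-Hochberg), 451 with the pooled error and 0 with the mean of probe sets. Averaged calls were 23, against 90 with array weights, 72 with cyclic loess, 685 with the pooled error and 13 with the mean of probe sets. In the difference they were 0, against 140 with the pooled error.

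The signs that changed all belonged to differences near 0. They were Scd1 1415965_at at 4-wk with the RNA quality covariate (0.053), Scd2 at 2-d with the mean of probe sets (0.028), and Fads1 at 2-d with cyclic loess (0.0079) and the replicate block (0.0062). The difference of diet effects of Fads2 was 0.027 with B25, 0.11 without A01, A09 and A24, 0.051 with array weights, 0.013 with median centring, 0.019 with the RNA quality covariate, 0.040 with the replicate block and 0.077 with the mean of probe sets. Elovl1 gave -0.013 at 4-wk with array weights, 0.0011 at 2-d without A01, A09 and A24, and averaged -0.0075 with B25 and -0.034 with array weights. Elovl5 averaged gave -0.018 without A01, A09 and A24.

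For 4-wk minus 2-d, 103 of 106 recomputed member values moved by less than 1 SD between mice within groups. For Scd1 1415965_at that SD, 0.81, is wider than the SE of its difference (0.32 on H-P/C-HF and 0.31 on L-P/C-HF). The H-P/C-HF shift of 1415965_at with the RNA quality covariate, given above, thus counted as less than 1 SD. Scd1 1415965_at on L-P/C-HF moved to 1.11 with the RNA quality covariate, and with both Scd1 probe sets averaged the values were 1.505 (H-P/C-HF) and 1.15 (L-P/C-HF). Of the 8 genes most like the brightest Scd1 probe set, 6 stayed with B25, 3 without A01, A09 and A24, and 3 by Spearman, and for the dimmer probe set 6, 3 and 4.

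Equal replicate numbers in different groups share only a number. The mean correlation of their deviations was -0.02 over 69 pairs, against 0.0021 over 759 pairs of unequal numbers, and the replicate block changed no member call. Whether probe sets near the top of the scale, as 1415964_at, show less than the true difference was not tested. The dim Scd2 probe sets carry little signal.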
